A study of Mus musculus with 36 samples.

Results

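S100 proteins are small calcium-sensing proteins of the EF-hand type, each encoded by its own gene and most of them clustered on 1 mouse chromosome. The genes described here are S100a8 and S100a9, 2 alarmins, together with S100a1, S100a4, S100a6, S100a10 and S100a11, which act mainly inside cells. They were chosen by name from 20719 nuclear genes counted in single cells of the mouse left ventricle, and all 7 were found. S100a8 and S100a9 form a heterodimer, calprotectin, that fills the cytosol of neutrophils and is released at sites of injury, where it can bind Toll-like receptor 4 (Tlr4) and the receptor for advanced glycation end products (Ager). S100a1 is the S100 protein of heart muscle and acts on the ryanodine receptor (Ryr2) and the calcium pump (Atp2a2). S100a10 does not bind calcium and pairs with annexin A2 (Anxa2), S100a11 pairs with annexin A1 (Anxa1), S100a6 binds calcyclin binding protein (Cacybp), and S100a4, often called fibroblast-specific protein, binds non-muscle myosin (Myh9).

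Male C57BL/6 mice had surgery at 8 weeks of age, and cells of the left ventricle, taken from the infarcted region after injury, were sorted by scatter as living cells into plates, 1 cell to a well. The groups were ischemia-reperfusion (IR), in which the left anterior descending artery was tied for 1 hour, with 9 plates of day 1, 7 of day 3 and 3 of day 14, myocardial infarction (MI), a permanent ligation, with 5 plates of day 3, and sham surgery with 4 plates of day 1 and 8 of day 14. Strain and sex were the same in all groups. There were no day 3 sham samples to analyse here. In the fits of gene counts, both day 3 groups were set against the sham groups of day 1 and day 14 at equal weight. Shares of wells were instead compared with the sham plates of both days pooled, each replicate counting the same. A plate is the replicate in every test. The mouse behind each plate is not given. For MI the methods of the study give fewer hearts than there are plates, so plates share mice, and in the other groups they can, so p-values measure the spread between plates and are likely too small. The MI plates carry a protocol label of their own, and MI and that label cannot be told apart.

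All 7 genes lie on chromosome 3 and are protein-coding (GRCm38, GENCODE vM21). S100a1 (ENSMUSG00000044080) is at chr3:90511034-90514392 on the minus strand, S100a4 (ENSMUSG00000001020) at chr3:90603771-90606045 and S100a6 (ENSMUSG00000001025) at chr3:90612882-90624181 on the plus strand. The alarmin genes follow, with S100a8 (ENSMUSG00000056054) at chr3:90668978-90670035 on the plus strand and S100a9 (ENSMUSG00000056071) at chr3:90692632-90695721 on the minus strand, 22596 bases apart. These 5 genes span 184688 bases. S100a11 (ENSMUSG00000027907) at chr3:93520488-93526287 and S100a10 (ENSMUSG00000041959) at chr3:93555080-93564643, both on the plus strand, lie 2824766 bases further on and 28792 bases from each other. S100a4 overlaps the gene model Gm42674 on the same strand, so a read there could come from either. Whether reads were counted by strand is not given in the sources used here.

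The 250 bases before the transcription start in RefSeq (GRCm38.p6) are shown for the alarmin pair, which moved together, for S100a11, which rose in several cell classes, and for S100a1, which followed heart muscle. A RefSeq start can lie inside or outside the GENCODE gene body given above. Sequences run 5′ to 3′ on the gene's strand, with matches to AP-1 (TGANTCA), C/EBP (TTNCNNNAA) and the TATA box (TATAAA) in capitals. Motifs were searched on both strands.
S100a8, chr3:90668821-90669070, plus strand: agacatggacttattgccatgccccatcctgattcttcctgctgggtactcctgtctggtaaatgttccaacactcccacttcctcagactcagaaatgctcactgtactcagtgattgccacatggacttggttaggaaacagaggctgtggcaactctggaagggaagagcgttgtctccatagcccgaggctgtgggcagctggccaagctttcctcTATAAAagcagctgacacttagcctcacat
S100a9, chr3:90695722-90695971, minus strand: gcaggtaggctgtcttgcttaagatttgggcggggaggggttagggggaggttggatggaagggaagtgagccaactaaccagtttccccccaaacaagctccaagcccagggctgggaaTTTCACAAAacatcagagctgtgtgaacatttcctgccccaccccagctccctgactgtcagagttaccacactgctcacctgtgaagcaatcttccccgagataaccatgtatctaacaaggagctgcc
S100a11, chr3:93520246-93520495, plus strand: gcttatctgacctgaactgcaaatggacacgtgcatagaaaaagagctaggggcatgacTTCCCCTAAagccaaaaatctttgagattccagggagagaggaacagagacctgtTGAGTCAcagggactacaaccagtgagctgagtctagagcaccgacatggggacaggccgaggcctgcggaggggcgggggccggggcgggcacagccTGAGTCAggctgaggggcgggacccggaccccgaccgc
S100a1, chr3:90514331-90514580, minus strand: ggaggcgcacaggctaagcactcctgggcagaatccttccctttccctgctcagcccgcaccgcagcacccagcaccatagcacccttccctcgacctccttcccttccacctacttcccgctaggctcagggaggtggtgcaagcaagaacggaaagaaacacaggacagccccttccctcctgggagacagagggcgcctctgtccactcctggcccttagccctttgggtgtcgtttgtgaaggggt
In S100a8 the TATAAA sits at positions -30 to -25 from the start. In S100a9 the capitals are a C/EBP match, TTTCACAAA, at -130 to -122. In S100a11 there are AP-1 matches, both TGAGTCA, at -136 to -130 and -38 to -32, and a C/EBP match, TTCCCCTAA, at -191 to -183. S100a1 and S100a6 have no match, and S100a4 has TATAAA at -31 to -26. Of 32851 RefSeq promoters of this length, 6.75% hold the AP-1 letters, 32.9% the C/EBP letters and 12.4% TATAAA. Among the 6 of 7 genes with a promoter in the table, 1, 2 and 2 hold them. A match is a description of the letters, not of a bound site.

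Of 13824 wells, 3146 held at least 1000 UMIs (unique molecular identifiers, each standing for 1 counted transcript) of nuclear genes. Leaving out 19 wells whose profile was a copy from another plate left 3127. Clusters were named by marker genes, with all S100 genes kept out of the clustering, as cardiomyocyte-like (1155 wells), macrophage-like (599), endothelial-like (414), fibroblast-like (297) and neutrophil-like (157). Another 94 wells were erythrocyte-like, 10 mural-like and 401 stayed unnamed. Plate totals ranged from 176614 to 5551870 UMIs, and the median of a kept well was 13120 UMIs for MI against 2217 to 3230 in the other groups. The median mitochondrial share of a kept well was 10.5% for MI and 34.6% to 74.0% in the other groups. Replicate 2 of IR day 3 had no kept well. Replicates 2 and 7 of day 14 sham matched in the profiles of 154 wells, and the depths of their wells correlated at a Spearman's rho of 0.954, against 0.536 for the next pair of plates. They were treated as 1 replicate through their mean, although values pooled over wells hold both. Replicates 3 and 4 of day 14 sham stood apart, with no cardiomyocyte-like well. They enter the results over all wells, which are given with and without them, and replicate 3 enters the comparison of classes in MI with 1 endothelial-like well.

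The classes differed in which S100 genes they held, and the 2 alarmins were concentrated in neutrophil-like wells. Levels are counts per 1000000 UMIs of the wells of a class on a plate (CPM), as mean ± SD over plates with at least 5 wells of the class, and class differences are a description, since the classes come from the same cells. S100a8 stood at 15124 ± 7014 CPM in neutrophil-like wells (n = 14 plates), followed by macrophage-like wells at 227 ± 345 CPM (n = 24), endothelial-like wells at 75.5 ± 240 CPM (n = 27), fibroblast-like wells at 20.7 CPM and cardiomyocyte-like wells at 2.42 CPM. S100a9 had the same order over the first 3 classes, with 14350 ± 6042 CPM in neutrophil-like and 128 ± 225 CPM in macrophage-like wells. For both genes only the step from neutrophil-like to macrophage-like wells exceeded the spread over plates, in that the intervals of 1 SD around the means did not overlap. Neutrophil-like wells were 21.3% of the kept wells of IR day 1 and held 82.5% of the S100a8 UMIs and 85.2% of the S100a9 UMIs of that group. In MI they were 7.07% of the wells and held 41.6% and 43.3%, while macrophage-like wells, 38.4% of the wells, held 51.8% and 51.7%.

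S100a1 had its highest level in cardiomyocyte-like wells, at 829 ± 379 CPM (n = 19). Endothelial-like wells followed at 218 ± 153 CPM, and this was the only step beyond the spread. Fibroblast-like, macrophage-like and neutrophil-like wells lay lower, at 89.9, 72.8 and 67.9 CPM. S100a4 was highest in macrophage-like wells, at 929 ± 420 CPM, and not in fibroblast-like wells, which stood at 185 ± 185 CPM (n = 20), and only this step exceeded the spread. Neutrophil-like, endothelial-like and cardiomyocyte-like wells had 93.9, 51.9 and 8.70 CPM of S100a4. Macrophage-like wells held 72.6% to 88.0% of the S100a4 UMIs of day 1 sham, IR day 1, IR day 3 and MI. In day 14 sham they held 7 of 30 and in IR day 14 7 of 20, and fibroblast-like wells held 17 and 10.

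The remaining genes were spread over the non-muscle classes. S100a6 ran from 2110 ± 1002 CPM in neutrophil-like wells through 1416 ± 504 CPM in fibroblast-like, 1099 ± 631 CPM in macrophage-like and 440 ± 375 CPM in endothelial-like wells to 53.8 ± 59.0 CPM in cardiomyocyte-like wells, and each neighbour in this order overlapped the next. S100a11 was also highest in neutrophil-like wells (2098 ± 671 CPM), followed over all groups by fibroblast-like (1027 ± 465 CPM), macrophage-like (963 ± 590 CPM) and endothelial-like wells (816 ± 501 CPM), and lowest in cardiomyocyte-like wells (109 ± 157 CPM), the last step being the only one beyond the spread. S100a10 departed from this pattern, with its highest level in macrophage-like wells (675 ± 341 CPM), means over all groups of 370 ± 200 CPM in endothelial-like and 370 ± 161 CPM in fibroblast-like wells, and a low one in neutrophil-like wells (129 ± 137 CPM). Cardiomyocyte-like wells had 58.6 ± 105 CPM of S100a10. The plates behind these means come from different groups, as neutrophil-like wells are of IR day 1 and MI alone. Within IR day 1 neutrophil-like wells led for S100a6, at 2573 ± 916 CPM (SD, n = 9) against 1735 ± 528 CPM (SD, n = 9) in macrophage-like and 1442 ± 700 CPM (SD, n = 5) in fibroblast-like wells. Within MI the order was another, with 1669 ± 92.2 CPM in fibroblast-like, 1276 ± 481 CPM in neutrophil-like and 1004 ± 142 CPM in macrophage-like wells (SD, n = 5 each). S100a11 was highest in neutrophil-like wells within both, at 2239 ± 729 CPM in IR day 1 and 1845 ± 527 CPM in MI, where fibroblast-like wells had 1658 ± 74.4 CPM. The classes below them also changed places between groups. For S100a11, fibroblast-like wells stood at 771 ± 163 CPM (SD, n = 3) in day 1 sham, with endothelial-like wells at 373 ± 82.1 CPM (SD, n = 4) and no overlap, while in IR day 1 macrophage-like wells (1523 ± 511 CPM) and endothelial-like wells (1136 ± 281 CPM) had higher means than fibroblast-like wells (883 ± 326 CPM). In MI endothelial-like wells (1475 ± 185 CPM) were near fibroblast-like ones, and macrophage-like wells (910 ± 231 CPM) lay below every fibroblast-like plate. For S100a10, fibroblast-like wells were above endothelial-like wells in day 1 sham (657 ± 61.9 against 311 ± 41.3 CPM) and below them in MI (294 ± 43.9 against 492 ± 33.1 CPM), in both without overlap.

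**Figure D1:**
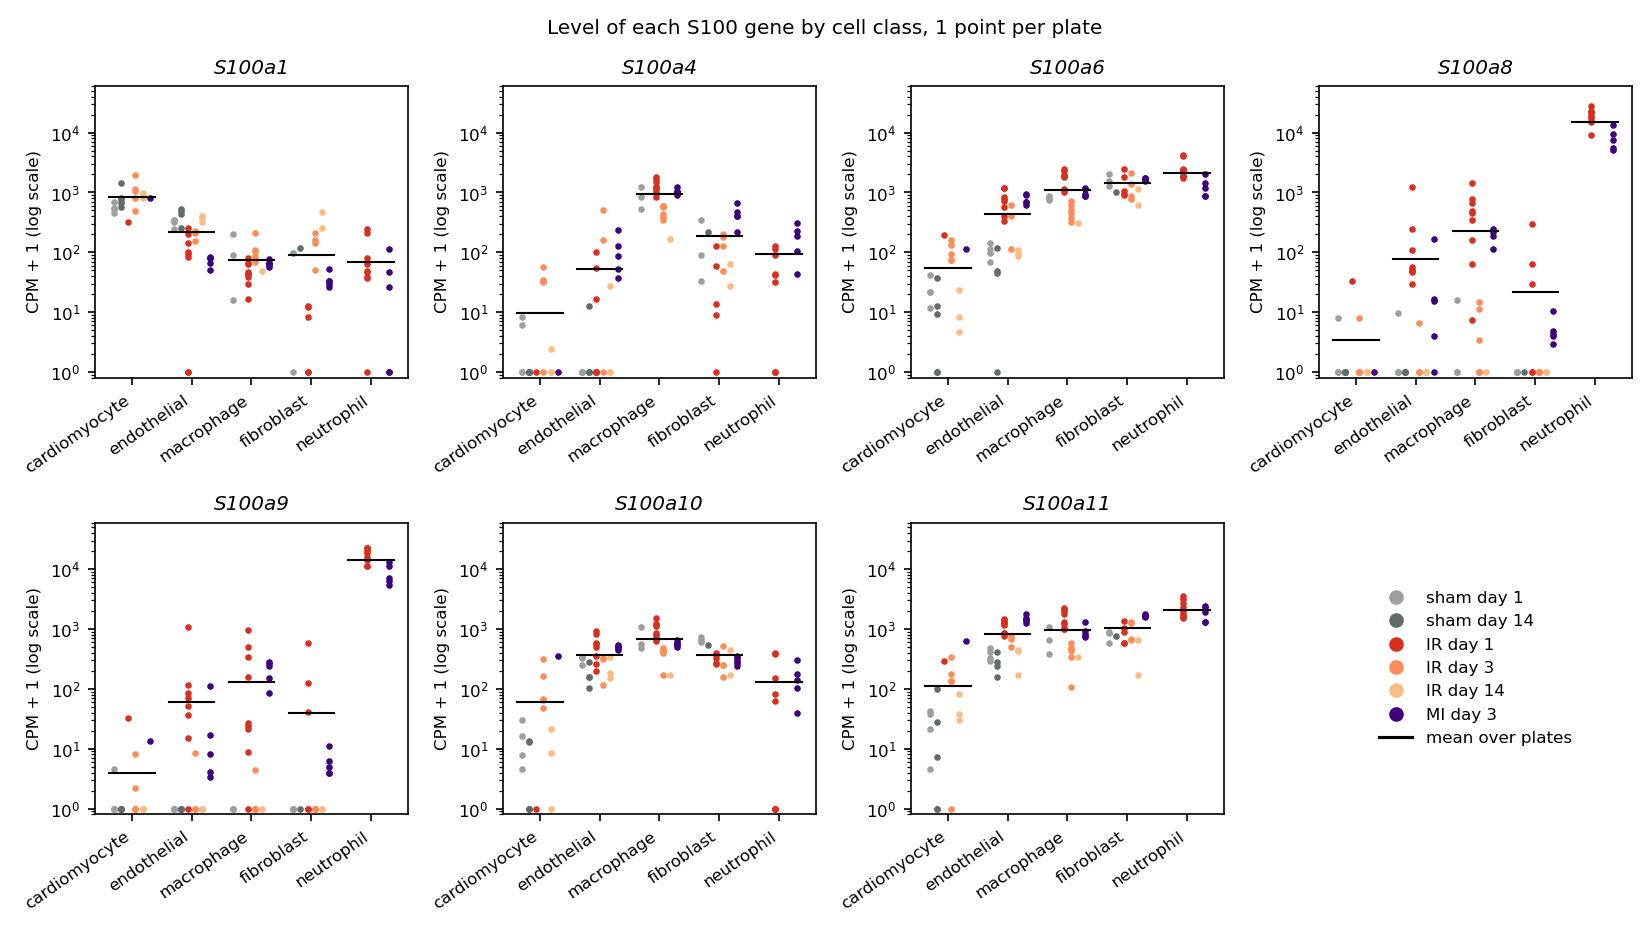
Level of each S100 gene in CPM plus 1 (log axis) by cell class, with 1 point per plate coloured by group and a line at the mean over plates. S100a8 lies between 5140 and 27479 CPM in neutrophil-like wells and at most at 1460 CPM in macrophage-like wells of IR day 1, S100a1 peaks in cardiomyocyte-like wells at a mean of 829 CPM and S100a4 in macrophage-like wells at a mean of 929 CPM.

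Wells carrying the alarmin transcripts were common at day 1 of IR and at day 3 of MI, and rare or absent in every other group. To compare plates of unequal depth, the expected percentage of kept wells with at least 1 UMI was computed after thinning each well to 1000 UMIs. For S100a8 the 9 plates of IR day 1 had a lowest share of 25.0%, a median of 31.7% and a highest share of 43.9%, against 0%, 0.0989%, 0.707% and 1.45% on the 4 plates of day 1 sham. The groups did not overlap, with means of 32.6% ± 7.37 (SD, n = 9) and 0.563% ± 0.667 (SD, n = 4), a difference of 32.0 percentage points (exact two-sided permutation test over plates, p = 0.0028, adjusted p = 0.00559 over 8 tests; the smallest p of this design was 0.0014). For S100a9 the IR day 1 plates ran from 15.2% through a median of 27.8% to 42.3%, against 0.0762%, 0%, 0.730% and 0% in day 1 sham, with the same exact p of 0.0028.

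At day 3 of MI the S100a8 shares were 9.00%, 12.5%, 14.7%, 15.5% and 11.2%, and the S100a9 shares 9.30%, 12.9%, 14.4%, 16.1% and 10.5%. Every MI plate lay above each of the 11 sham plates, whose mean was 0.205% ± 0.463 (SD) for S100a8 and 0.132% ± 0.276 (SD) for S100a9. The MI means were 12.6% ± 2.64 (SD, n = 5) and 12.6% ± 2.77 (SD, n = 5), and each difference had an exact permutation p of 0.000458 (adjusted p = 0.00183). Without day 14 sham plates 3 and 4 the differences were 12.34 and 12.55 percentage points (exact permutation test, adjusted p = 0.003996). At day 3 of IR the S100a8 share was 0.205% ± 0.406 (SD, n = 6) and the S100a9 share 0.171% ± 0.396 (SD, n = 6), overlapping sham (exact permutation p = 0.93 and 0.74, both adjusted to 1). On the 3 plates of IR day 14 both shares were 0%. No S100a8 UMI was found in 476 kept wells of IR day 14, which allows a share of up to 0.630% of wells with a UMI. This limit covers counting error only, over wells of 3 plates, and says nothing of cells whose transcripts were missed at this depth.

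**Figure D2:**
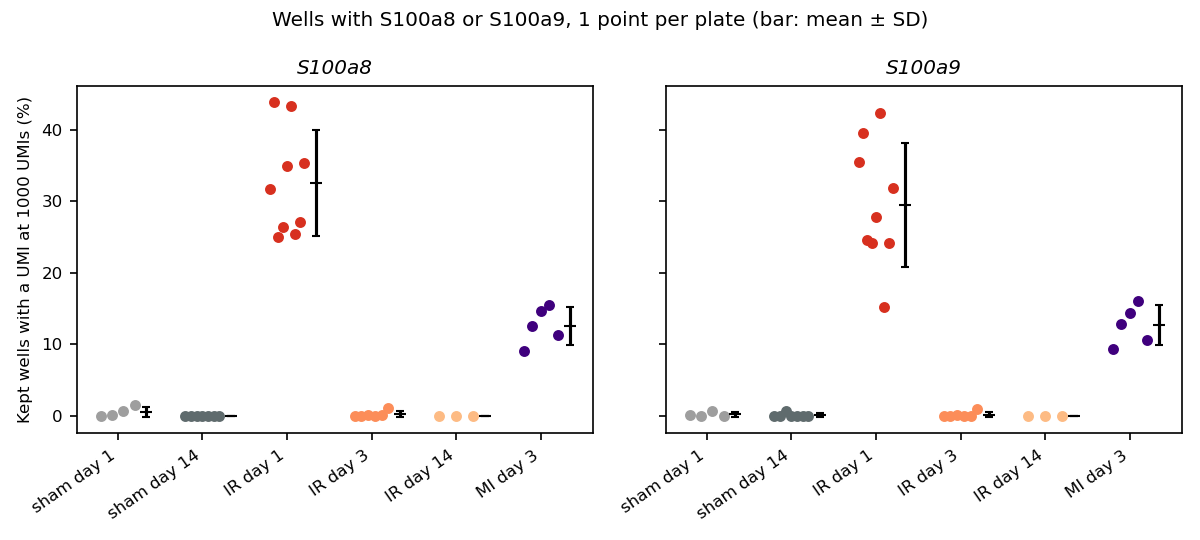
Expected percentage of kept wells with a UMI of S100a8 (left) or S100a9 (right) after thinning each well to 1000 UMIs, with 1 point per plate by group and a bar for mean ± SD. The 9 plates of IR day 1 lie between 15.2% and 43.9% and the 5 plates of MI day 3 between 9.00% and 16.1%, above all plates of the other groups.

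The number of neutrophil-like wells moved with these shares: 105 of IR day 1, 51 of MI, 1 of day 1 sham and 0 of the other groups. As free RNA can put a UMI into a well whose cell does not make it, cardiomyocyte-like wells served as a class that should lack S100a8. In IR day 1, S100a8 was seen in 7 of 33 cardiomyocyte-like wells (21.2%, or 10.01% after thinning, median depth 1910 UMIs) and in 101 of 105 neutrophil-like wells (96.2%, or 93.3% after thinning, median 1925 UMIs). In MI it was seen in 3 of 17 cardiomyocyte-like wells (17.6%, thinned 2.89%, median 11405 UMIs) and in 43 of 51 neutrophil-like wells (84.3%, thinned 81.4%, median 2224 UMIs). Neutrophil-like wells stood far above this background in both groups. Macrophage-like wells had a thinned S100a8 share of 19.95% in IR day 1 (48 of 106 wells unthinned, median 9292.5 UMIs) and 11.6% in MI (113 of 277 wells, median 22854 UMIs), above the cardiomyocyte-like share in each group. Endothelial-like wells had 8.01% in IR day 1 and 2.30% in MI, at or below that background.

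Within a neutrophil-like well the 2 transcripts came as a pair. Of 157 such wells, 140 held both, 5 held only S100a8, 4 only S100a9 and 8 neither, and the UMIs stood at 0.949 S100a9 per S100a8. The median well had 22 UMIs of S100a8 and 20 of S100a9. In IR day 1 the medians were 27 and 23 UMIs, and the pair made up 2.30% of a median well's UMIs; in MI they were 15 and 16 UMIs, or 1.17%. The ratio of S100a9 to S100a8 was 0.912 in IR day 1 and 1.09 in MI.

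Macrophage-like wells were less regular. Of 106 macrophage-like wells of IR day 1, 17 held both transcripts, 31 only S100a8, 7 only S100a9 and 51 neither, with 437 UMIs of S100a8 against 251 of S100a9, a ratio of 0.574. The ratio varied by plate: macrophage-like wells of replicates 2 and 3 summed to 49 and 135 UMIs of S100a8 against 60 and 153 of S100a9, while those of replicates 7 and 8 summed to 44 and 74 of S100a8 against 1 and 3 of S100a9. Neutrophil-like wells of replicates 7 and 8 had 364 and 145 UMIs of S100a8 against 386 and 175 of S100a9. On these plates the imbalance was seen in macrophage-like and not in neutrophil-like wells. On replicates 4, 5, 6 and 9 both classes had less S100a9 than S100a8. Neutrophil-like wells there had 611, 683, 650 and 454 UMIs of S100a8 against 515, 498, 468 and 377 of S100a9. Macrophage-like wells had 6, 70, 51 and 7 against 0, 17, 12 and 1. In MI, 60 of 277 held both, 53 only S100a8, 26 only S100a9 and 138 neither, at a ratio of 1.05. A subset held S100a8 without its partner: 11 macrophage-like wells of IR day 1, on 6 plates, had at least 5 UMIs of S100a8 (median 9, highest 54) and none of S100a9, while 6 wells had at least 5 of each. In MI there were 5 such wells, on 3 plates, with at most 8 UMIs of S100a8, against 33 with at least 5 of each. The reverse, at least 5 UMIs of S100a9 with none of S100a8, was seen in 0 macrophage-like wells. The 8 neutrophil markers summed to 1195 CPM in the 11 wells, 2803 CPM in the 6 wells with both, 632 CPM over all macrophage-like wells and 14360 CPM over neutrophil-like wells, each a median over wells of IR day 1. The part of neutrophil RNA or doublets in these wells was not tested. Outside these classes 7 wells held at least 20 UMIs of S100a8. An endothelial-like well of IR day 1 held 269 and 231 UMIs of S100a8 and S100a9 and another 20 and 16, an endothelial-like well of MI held 102 and 64, a fibroblast-like well of IR day 1 held 26 and 53, and 3 unnamed wells of IR day 1 held up to 43 and 27.

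**Figure D3:**
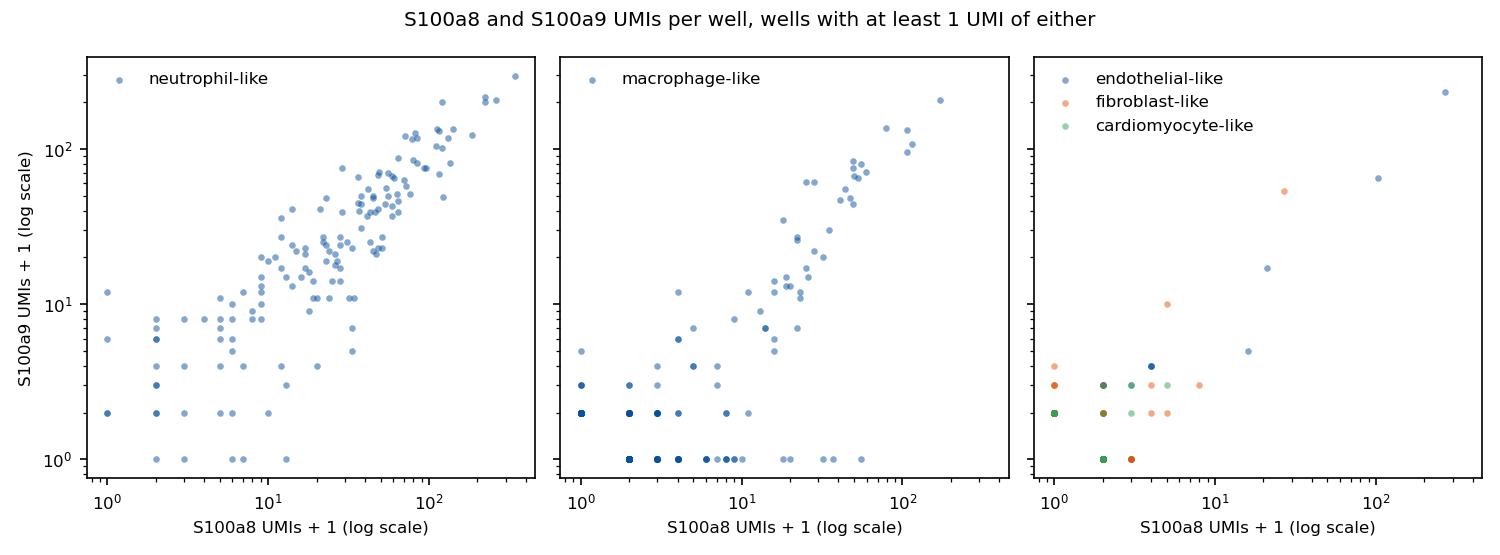
UMIs of S100a9 plus 1 against UMIs of S100a8 plus 1 per well (both axes log), for wells with at least 1 UMI of either, in neutrophil-like wells (left), macrophage-like wells (middle) and the 3 other main classes (right). In neutrophil-like wells the points follow a line near equal counts, while macrophage-like wells also hold points along the lower edge, with S100a8 up to 54 UMIs and no S100a9.

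Per neutrophil-like well, the alarmin level was lower at day 3 of MI than at day 1 of IR, a comparison in which day, surgery and library label all differ and cannot be told apart. S100a8 on the IR day 1 plates ran from 9276 through a median of 19059 to 27479 CPM, against 5542, 13629, 5140, 9419 and 7575 CPM on the 5 MI plates. The groups overlapped at MI replicates 2 and 4, and the fold change was -1.24 ± 0.31 on the log2 scale (± SE here and below; edgeR quasi-likelihood test, Benjamini-Hochberg adjusted p = 0.00693). S100a9 ran from 11195 through 18335 to 22590 CPM in IR day 1 and was 5428, 11057, 6269, 12977 and 7006 CPM in MI, with overlap at MI replicate 4 and a log2 change of -1.09 ± 0.29 (adjusted p = 0.0111) that lost its call without MI replicate 3 (-0.93). S100a6 fell by 1.06 ± 0.29 (adjusted p = 0.014), from 1727 to 4214 CPM (median 2372) in IR day 1 to 873, 857, 1175, 1459 and 2014 CPM in MI, which overlapped at MI replicate 5, and lost its call without MI replicate 1 (-0.87) or 3 (-0.97). S100a11, at -0.34 ± 0.26 (adjusted p = 0.371), did not pass. These were 3 of 4 S100 genes tested, beside 10.9% of the 495 genes tested that were called lower and 11.1% called higher. In the same wells the fibroblast markers summed to 648 CPM in IR day 1 and 4607 CPM in MI, macrophage markers to 444 and 1078 CPM, endothelial markers to 1784 and 181 CPM, cardiomyocyte markers to 2087 and 574 CPM and the neutrophil markers themselves to 15087 and 11086 CPM; their part in the result was not tested.

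In macrophage-like wells, all the S100 genes but S100a1 fell between day 1 and day 3 of IR. S100a4, on plates of IR day 1 from 850 through a median of 1240 to 1792 CPM, lay at 340 to 599 CPM on day 3 (median 507), with no overlap and a log2 change of -1.36 ± 0.22. S100a6 went from 1029, 1884 and 2498 CPM (lowest, median, highest) to 317, 480 and 723 CPM, again without overlap (-1.74 ± 0.24). S100a11 went from 995, 1311 and 2219 CPM to 106, 443 and 588 CPM (-1.84 ± 0.29), and S100a10 from 639, 859 and 1542 CPM to 170, 416 and 488 CPM (-1.31 ± 0.25). The alarmins fell from unequal plates, S100a8 from a median of 445 CPM to at most 13.8 CPM (-6.03 ± 0.81) and S100a9 from a median of 25.6 CPM to at most 3.46 CPM (-7.32 ± 1.35), and both overlapped, as their lowest IR day 1 plates had 6.39 and 0 CPM. S100a1, from 15.9 to 80.1 CPM on IR day 1 and 67.9 to 211 CPM on day 3, rose by 1.03 ± 0.31 (adjusted p = 0.0127), a call lost without IR day 3 replicate 4 (0.92). Cardiomyocyte markers in the same wells summed to 480 CPM in IR day 1 and 2513 CPM in IR day 3, and the 3 tested of 4 listed calcium handling and sarcomere partners of S100a1 rose too, Pln by 3.86, Ttn by 1.66 and Atp2a2 by 1.05. Neutrophil markers summed to 893 and 464 CPM, fibroblast markers to 127 and 1044 CPM and the macrophage markers themselves to 5599 and 10115 CPM. The part of these markers in the S100 values was not tested. The 6 genes that fell and 1 that rose stand beside 13.4% of 5117 genes called lower and 12.8% called higher. With clusters drawn at a finer resolution (Leiden 2) S100a11 (-0.70) and S100a9 (-6.72) lost their calls.

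Macrophage-like wells of MI had more of 5 S100 genes than those of IR at the same day. S100a4 was 902, 1001, 1224, 962 and 1072 CPM on the MI plates, all above the 340 to 599 CPM of IR day 3 (log2 change 1.09 ± 0.24). S100a6, at 887, 938, 1124, 884 and 1188 CPM, was also above every IR day 3 plate (0.97 ± 0.26), as was S100a11, at 834, 758, 939, 724 and 1295 CPM (1.11 ± 0.31), although that call was lost without MI replicate 5 (0.93). S100a8, at 111, 216, 234, 248 and 189 CPM, rose by 4.86 ± 0.83, and S100a9, at 83.9, 244, 268, 284 and 151 CPM, by 7.28 ± 1.34. The 5 genes stand beside 5.63% of genes called higher and 3.99% called lower, and with wells of at least 2000 UMIs S100a6 (0.83) and S100a11 (0.83) lost their calls. The neutrophil markers in these wells summed to 464 CPM in IR day 3, with Retnlg at 0, and 977 CPM in MI. Cardiomyocyte markers summed to 2513 and 207 CPM, fibroblast markers to 1044 and 1093 CPM and the macrophage markers themselves to 10115 and 7571 CPM. The part of these markers in the alarmin and other S100 values was not tested.

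Against day 1 sham, where 3 plates had enough macrophage-like wells, S100a6 rose in IR day 1 (log2 change 1.13 ± 0.31, adjusted p = 0.0456) from 808, 873 and 735 CPM, and S100a8 rose (6.14 ± 1.42, adjusted p = 0.0142) from 15.2, 0 and 0 CPM to a median of 445 CPM. These are 2 genes beside 0.723% of 5117 called higher and 1.8% called lower. The S100a6 call was lost without any of the 3 sham plates or any of IR day 1 replicates 4 to 9 (1.03 to 1.19), and that of S100a8 without any of the sham plates (5.50 to 10.7). At Leiden resolution 2 neither passed (0.85 and 2.41). Sham held 1 UMI of S100a8 in these wells, so the pooled ratio was 64.4 (95% interval for counting error 11.5 to 2550). S100a9 was at 0 in sham and at least 12.3-fold higher in IR day 1, counted against a floor of 3 UMIs over the sham group, but its adjusted p was 0.153. Replicate 3 held 153 of the 251 UMIs of S100a9 in IR day 1, and replicate 4 held 0. Neutrophil markers in these wells summed to 635 CPM in day 1 sham and 893 CPM in IR day 1, and their part in the alarmin values was not tested.

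**Figure D4:**
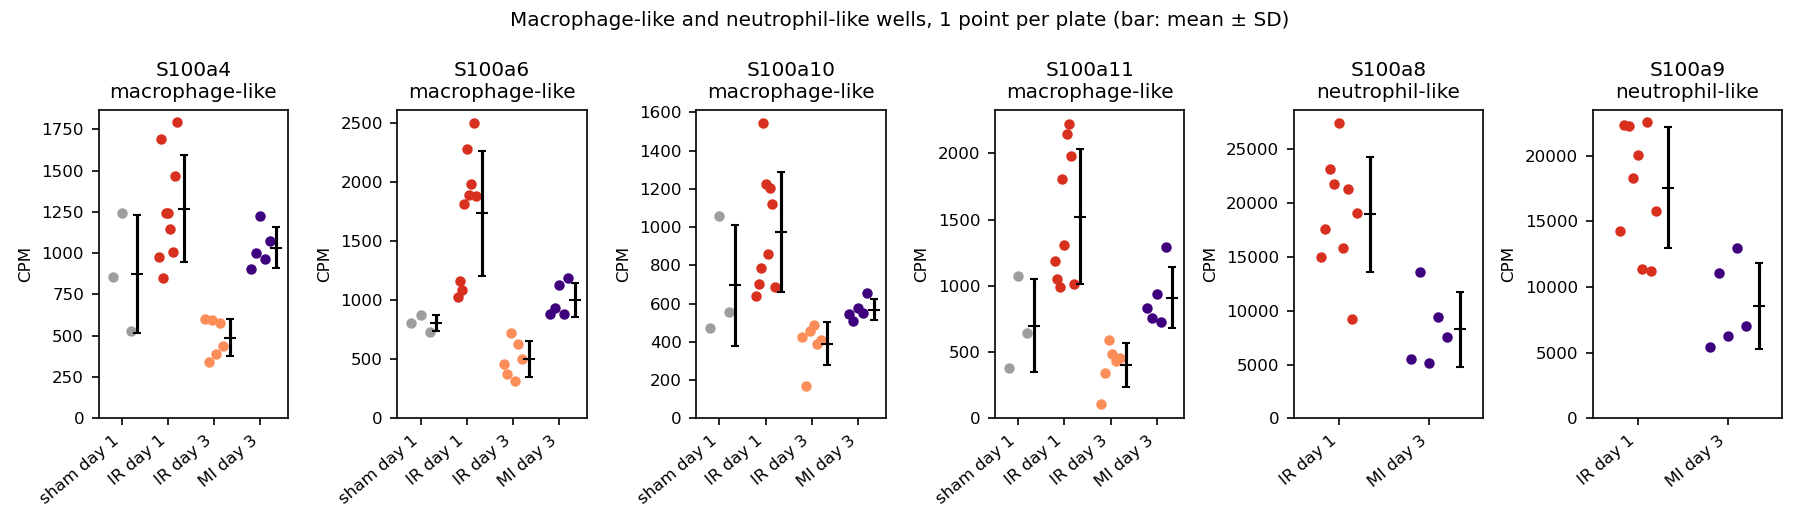
CPM of S100a4, S100a6, S100a10 and S100a11 in macrophage-like wells and of S100a8 and S100a9 in neutrophil-like wells, with 1 point per plate by group and a bar for mean ± SD. S100a4 in macrophage-like wells lies at 340 to 599 CPM on IR day 3, below all plates of IR day 1 (850 to 1792 CPM) and MI day 3 (902 to 1224 CPM).

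Summed over all kept wells of a plate, every S100 gene of the set changed at day 1 of IR and at day 3 of MI. In such sums fewer cells of a type and less RNA per cell cannot be told apart. S100a8 was 0, 2.37, 1.41 and 5.78 CPM on the day 1 sham plates and ran from 760 through a median of 1863 to 2831 CPM on those of IR day 1 (log2 change 9.40 ± 0.73, adjusted p = 2.6e-10). S100a9 was 2.21, 0, 9.83 and 0 CPM in day 1 sham and ran from 598 through 1573 to 2423 CPM (8.40 ± 0.74, adjusted p = 2.79e-10). S100a6 rose from 151, 232, 351 and 234 CPM to between 969 and 2014 CPM (2.28 ± 0.50), and S100a11 from 146, 220, 382 and 249 CPM to between 961 and 2222 CPM (2.22 ± 0.42). S100a10, from 135, 175, 308 and 234 CPM to between 434 and 720 CPM, rose by 1.13 ± 0.32, and S100a4, from 6.64, 144, 142 and 54.9 CPM to between 177 and 728 CPM, by 2.02 ± 0.50. S100a1 fell by 2.24 ± 0.42 (adjusted p = 5.54e-05), from 356, 357, 423 and 364 CPM to between 53.0 and 143 CPM. All 7 genes passed, 6 higher and 1 lower, beside 19.8% of 9280 genes called higher and 17% called lower. None of the 7 overlapped between these groups, and the share of all genes without overlap is not given here.

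In day 14 sham the highest plate had 224 CPM of S100a6, 234 of S100a11, 150 of S100a10, 50.7 of S100a4, 11.8 of S100a9 and 0 of S100a8, and S100a1 ran from 0 through a median of 516 to 1044 CPM. At day 3 of MI all 7 genes passed against sham, 6 higher and S100a1 lower, beside 33.1% of genes called higher and 23.4% called lower. S100a8 was 88.2, 194, 166, 263 and 157 CPM on the MI plates (log2 change 8.11 ± 0.68) and S100a9 75.2, 195, 191, 309 and 135 CPM (6.30 ± 0.60, or 7.76 without day 14 sham plates 3 and 4). S100a6 was 1299, 1193, 1418, 1072 and 1517 CPM (2.54 ± 0.40) and S100a11 1291, 1141, 1361, 1206 and 1686 CPM (2.60 ± 0.33). S100a4, at 555, 672, 696, 653 and 560 CPM, rose by 3.52 ± 0.43 and S100a10, at 472, 461, 426, 448 and 607 CPM, by 1.36 ± 0.27. S100a1, at 51.6, 72.5, 67.3, 62.5 and 127 CPM, fell by 2.66 ± 0.44. For the 6 genes that rose every MI plate lay above every sham plate, while S100a1 lay below every sham plate but day 14 sham plates 3 and 4, at 23.6 and 0 CPM (-2.92 without them). The share of all genes set apart in this way is not given here.

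At day 3 of IR the plates ran from 169 to 385.2 CPM for S100a4, 363 to 662 CPM for S100a6, 68.0 to 685 CPM for S100a11 and 233 to 378 CPM for S100a10, of which S100a11 and S100a10 overlapped sham. The 4 genes passed, S100a4 (2.48 ± 0.43), S100a6 (1.28 ± 0.39, adjusted p = 0.011), S100a11 (1.12 ± 0.32, adjusted p = 0.00722) and S100a10 (0.80 ± 0.27, adjusted p = 0.0221), all higher, beside 18.7% of genes called higher and 11.4% called lower. Against day 1 sham alone S100a4 was the 1 gene that passed (1.56, adjusted p = 0.0284), with S100a6 at 0.90, S100a11 at 0.69 and S100a10 at 0.36. The S100a6 call was lost without IR day 3 replicate 4 (1.09), and that of S100a10 when any of IR day 3 replicates 3, 4 and 7, day 1 sham replicates 1 and 2 and day 14 sham replicates 1 and 6 was left out (0.66 to 0.71). S100a8 (2.90, adjusted p = 0.0571) did not pass, but did without IR day 3 replicate 4 (3.23) or day 1 sham replicate 4 (3.26). S100a9 (-0.31) and S100a1 (-0.48) did not pass, and S100a1 did without day 14 sham plates 3 and 4 (-0.68, adjusted p = 0.0275). At day 14 of IR 0 genes of the set passed in edgeR, 0 had an unadjusted p under 0.05 and 0 passed in DESeq2, beside 0.0216% of genes called higher and 0% lower. At that day S100a1 was 777, 701 and 592 CPM, S100a4 4.96, 9.41 and 14.2 CPM and both alarmins 0 CPM on each plate.

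MI exceeded IR at day 3 for S100a9 (6.61 ± 0.72), S100a8 (5.21 ± 0.58), S100a11 (1.48 ± 0.37) and S100a6 (1.27 ± 0.45, adjusted p = 0.0448), while S100a1 was lower (-2.18 ± 0.46). The S100a6 call was lost when any of the 11 plates of these groups was left out (1.16 to 1.42). S100a4 (1.04) and S100a10 (0.56) did not pass. This is 4 genes higher and 1 lower, beside 7.78% and 9.8% of genes. Without day 14 sham plates 3 and 4 the set's calls were 7 at IR day 1, 5 at IR day 3, 0 at IR day 14, 7 at MI against sham and 5 at MI against IR.

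In contrast to the sums over all wells, S100a1 did not pass in any comparison within cardiomyocyte-like wells. Its level was 460, 550, 679 and 530 CPM on the day 1 sham plates, 663, 759, 1443, 820 and 570 CPM in day 14 sham, 1933, 807, 1054, 1154 and 489 CPM in IR day 3 and 967, 936 and 813 CPM in IR day 14. These groups overlapped, with a log2 change of 0.13 ± 0.28 (adjusted p = 0.882) for IR day 3 against sham. Few cardiomyocyte-like wells were left in IR day 1 (33) and MI (17), and these groups were fitted on plates with at least 1 such well, a choice made after seeing the data. The change was then -0.03 for IR day 1 and 0.11 ± 0.28 (adjusted p = 0.738) for MI.

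In cardiomyocyte-like wells 3 of the 4 S100 genes that could be tested rose in IR day 3, S100a10, S100a11 and S100a6, each of which was higher in other cell classes. S100a10 was 161, 64.3, 314, 65.9 and 46.1 CPM on the IR day 3 plates, against 3.51, 15.4, 29.5 and 6.89 CPM in day 1 sham and at most 12.7 CPM in day 14 sham. The groups did not overlap, and the log2 change was 2.90 ± 0.50 (adjusted p = 1.61e-05). S100a11 was 0, 176, 333, 132 and 135 CPM in IR day 3, against 3.51, 41.1, 36.9 and 20.7 CPM in day 1 sham and 27.3, 0, 97.4, 0 and 6.33 CPM in day 14 sham; the first of these IR plates lay within sham and the others above it (2.37 ± 0.39, adjusted p = 5.02e-06). S100a6, at 161, 92.9, 73.9, 132 and 74.4 CPM against 10.5, 20.6, 40.6 and 20.7 CPM in day 1 sham and at most 36.5 CPM in day 14 sham, did not overlap and rose by 2.09 ± 0.41 (adjusted p = 0.000191). S100a4 had too few counts to be tested, at 0, 30.98, 55.5, 33.0 and 31.9 CPM in IR day 3 (40 UMIs in all) against at most 7.38 CPM on a sham plate (3 UMIs in all), a pooled ratio of 17.1 (95% counting interval 5.46 to 86.6). The 3 genes of 4 tested stand beside 4.15% of 5778 genes called higher and 1.44% called lower. At day 14 of IR 0 of 4 passed in edgeR, 0 had an unadjusted p under 0.05 and 0 passed in DESeq2, beside 0.0865% and 0.0346% of genes.

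The increase was also seen on MI plates with at least 1 cardiomyocyte-like well, 2 to 6 wells each. There S100a10 rose by 4.78 ± 0.49, S100a11 by 4.50 ± 0.44 and S100a6 by 2.55 ± 0.51 against sham, beside 38.3% of 1891 genes called higher and 26.1% called lower. Against IR day 3, S100a10 (1.96 ± 0.47) and S100a11 (2.21 ± 0.46) were higher, beside 27.4% and 22.2% of genes. In IR day 1, on 8 plates with 1 to 14 such wells, S100a11 (3.00 ± 0.68, adjusted p = 0.0019) and S100a8 (5.49 ± 1.12, adjusted p = 0.000715) rose, and S100a6 (2.15 ± 0.68, adjusted p = 0.0251) rose with a call that was lost without IR day 1 replicate 2 (1.96) or 3 (1.34) or day 1 sham replicate 1 (1.87). S100a10 (0.68) did not pass. These 3 genes stand beside 4.34% of genes called higher and 12.5% called lower. On simulated data this fit, with as little as 1 well to a plate, made more false calls than its threshold allows, so its calls are less certain than the others. The S100a8 value, 1 of these 3, rests on the 7 of 33 wells given above as the background. Day 1 sham held 1 UMI of S100a8 in such wells, so the gene passed the filter on low counts through injured hearts alone. S100a8 in MI (3.07 ± 1.33, adjusted p = 0.0414) lost its call without MI replicate 3 (1.94) or 4 (2.70) and without any of day 1 sham replicates 1 to 3 and day 14 sham replicates 1 and 5 (2.86 to 3.04), and it too rests on the wells given as background.

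The wells behind these sums were not alike between groups. Of 17 cardiomyocyte-like wells of MI, 16 fell in a cluster that held 43 of 484 such sham wells, led by Nmrk2, Pla2g5 and Stard10, so the changes in MI compare wells of different clusters. Pooled over that cluster, S100a10 stood at 472 CPM in MI (95% Poisson interval 386 to 572, counting error only) and 6.01 CPM in sham (0.152 to 33.5), S100a11 at 985 and 84.2 CPM, S100a6 at 166 and 36.1 CPM and S100a1 at 1093 and 1461 CPM. Of 276 cardiomyocyte-like wells of IR day 3, 219 fell in a cluster led by Nppa, Sprr1a, Myh7, Clu, Nppb and Ankrd1, and replicates 4 and 7 held 142 and 95 of the 276. Pooled over that cluster in IR day 3, S100a10 stood at 70.9, S100a11 at 182 and S100a6 at 90.9 CPM, against 6.46, 29.0 and 25.8 CPM in 206 sham wells of another cluster. In the cluster of the MI wells, 6 wells of IR day 3 had 659 CPM of S100a10 (376 to 1069). In a cluster with 27 wells of IR day 3 and 63 of sham the levels of S100a10 were 19.4 CPM in IR day 3 and 16.6 CPM in sham, and those of S100a11 85.5 and 27.6 CPM. Fibroblast markers in cardiomyocyte-like wells summed to 357 and 167 CPM in day 1 and day 14 sham, 1062 CPM in IR day 1, 2071 CPM in IR day 3 and 867 CPM in MI, and macrophage markers to 99.4, 40.8, 233, 641 and 139 CPM. The cardiomyocyte markers themselves summed to 71258 and 88218 CPM in sham, 42816 CPM in IR day 1, 78160 CPM in IR day 3 and 50360 CPM in MI. Their part in the result was not tested.

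Whether cardiomyocyte-like and endothelial-like wells changed by different amounts was tested directly. The sums of both classes from a plate entered as separate replicates without a term for the plate, so this pairing was not used. For IR day 3 against sham the fit recovered few of the changes planted in simulated data, so a difference could easily be missed. There 0 of the S100 genes passed in edgeR and 0 in DESeq2, with 3 at an unadjusted p under 0.05 (S100a10 at 2.60, adjusted p = 0.138), beside 0.0114% and 0.0228% of 8788 genes called higher and lower. For MI against sham, on plates with at least 1 well, the change in cardiomyocyte-like wells exceeded that in endothelial-like wells for S100a10 by 3.49 ± 0.63 (adjusted p = 2.19e-05), for S100a1 by 2.27 ± 0.54 (adjusted p = 0.000991) and for S100a11 by 2.04 ± 0.63 (adjusted p = 0.012), on the log2 scale. These 3 genes stand beside 8.03% of 4821 genes called higher and 13.5% called lower. The S100a11 difference lost its call with RLE scaling (1.18). Without day 14 sham plate 3 the differences were 3.51, 2.33 and 2.13, and each passed. Over all genes the median of this difference was -0.33, and that of the change on plates with at least 1 cardiomyocyte-like well was -0.31 for IR day 1, 0.41 for MI and 0.30 for MI against IR day 3, so changes there are relative to those shifts.

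**Figure D5:**
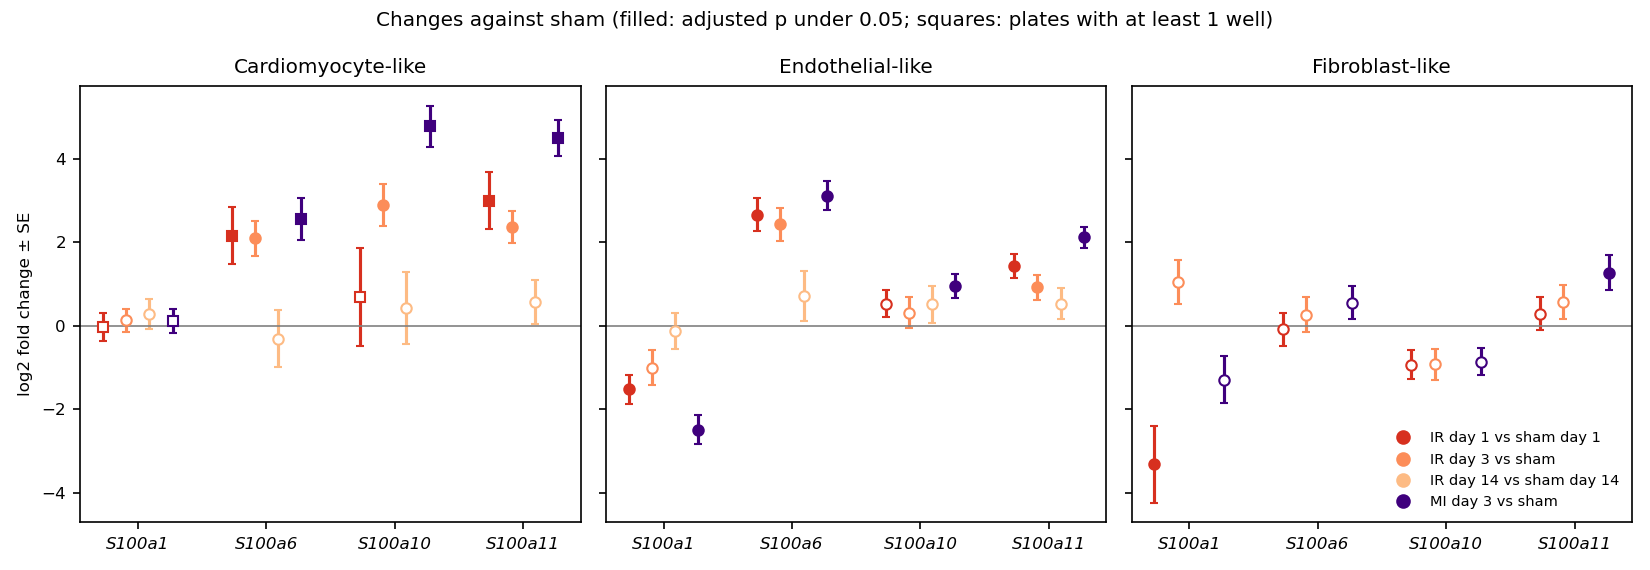
Log2 fold change against sham ± SE of S100a1, S100a6, S100a10 and S100a11 in cardiomyocyte-like, endothelial-like and fibroblast-like wells, coloured by comparison, filled where the adjusted p is under 0.05 and as squares where plates with at least 1 well were used. In cardiomyocyte-like wells S100a10 and S100a11 lie highest for MI, at 4.78 and 4.50, while S100a1 stays between -0.03 and 0.28; in endothelial-like wells S100a1 lies at -2.49 for MI.

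In endothelial-like wells S100a6 and S100a11 rose in IR day 1, IR day 3 and MI, and S100a1 fell in IR day 1 and MI. S100a6 was 113, 68.8, 143 and 96.5 CPM in day 1 sham and ran from 328 through a median of 745 to 1186 CPM in IR day 1, without overlap (log2 change 2.66 ± 0.40, adjusted p = 2.66e-05). It was 114, 622 and 403 CPM in IR day 3 (2.43 ± 0.40), the first of which lay within sham, and 685, 693, 605, 911 and 937 CPM in MI (3.11 ± 0.35), all above sham, which reached at most 143 CPM. S100a11 was 290, 404, 473 and 325 CPM in day 1 sham and 756 to 1484 CPM in IR day 1 (1.44 ± 0.29), 684, 752 and 505 CPM in IR day 3 (0.92 ± 0.30, adjusted p = 0.0461) and 1434, 1408, 1538, 1246 and 1748 CPM in MI (2.11 ± 0.25), above sham on every plate. Its IR day 3 call was lost without IR day 3 replicate 4 (0.61) or 7 (0.95), and also without any of day 1 sham replicates 1 and 4 and day 14 sham replicates 1 and 8 (0.84 to 0.91). S100a10 passed in MI only (0.95 ± 0.29, adjusted p = 0.012), at 443, 509, 532, 492 and 484 CPM against 322, 249, 337 and 334 CPM in day 1 sham. Fibroblast markers in endothelial-like wells summed to 520 and 582 CPM in day 1 and day 14 sham, 369 CPM in IR day 1, 1511 CPM in IR day 3 and 2265 CPM in MI, and macrophage markers to 204, 317, 136, 4568 and 502 CPM. Neutrophil markers summed to 375 and 206 CPM in sham, 578 CPM in IR day 1, 184 CPM in IR day 3 and 214 CPM in MI. The endothelial markers themselves summed to 15793 and 12420 CPM in sham, 10383 CPM in IR day 1, 5577 CPM in IR day 3 and 6740 CPM in MI. The part of these markers in the S100 values was not tested in any of the groups.

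S100a1 in endothelial-like wells was 241, 344, 352 and 325 CPM in day 1 sham and 434, 256, 494 and 538 CPM in day 14 sham. It ran from 0 through a median of 95.4 to 252 CPM in IR day 1 (-1.53 ± 0.35, adjusted p = 0.00301) and was 228, 206 and 154 CPM in IR day 3 (-1.01 ± 0.42, adjusted p = 0.126, not passing), 373, 319 and 402 CPM in IR day 14 and 50.3, 82.8, 80.2, 64.1 and 78.1 CPM in MI (-2.49 ± 0.36). The MI plates lay below every sham plate, and the IR day 1 plates overlapped day 1 sham at their highest. The 8 cardiomyocyte markers in the same wells moved with it, summing to 12148 and 26409 CPM in day 1 and day 14 sham, 2199 CPM in IR day 1, 8324 CPM in IR day 3, 18425 CPM in IR day 14 and 231 CPM in MI, with a plate range of 8275 to 15465 CPM in day 1 sham and 45.5 to 2326 CPM in MI and none of the 8 at 0. Their part in the S100a1 result was not tested.

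The alarmins in endothelial-like wells rested on few wells. S100a8 on the IR day 1 plates ran from 28.4 through a median of 53.6 to 1241 CPM and S100a9 up to 1058 CPM, both highest on replicate 9, the plate with the well of 269 and 231 UMIs. They rose by 6.70 ± 1.56 (adjusted p = 0.00378) and 8.05 ± 1.91 (adjusted p = 0.00505) against day 1 sham, which held 1 UMI of S100a8 and 0 of S100a9. The pooled S100a8 ratio was 263 (95% counting interval 46.8 to 10400), and S100a9 was at least 71.5-fold higher against 3 UMIs over the group. Without that 1 well the ratio was 58.3 and the bound 11.9-fold, and without replicate 9 the log2 change of S100a8 was 5.08 (adjusted p = 0.016). S100a9 had too few counts to be tested without IR day 1 replicate 4 or 9. In MI, S100a8 was 0, 3.07, 14.6, 165 and 15.6 CPM (5.05 ± 1.75, adjusted p = 0.027), a call that was lost without MI replicate 4 (1.75), day 1 sham replicate 3 (4.72) or day 14 sham replicate 1 (5.07). S100a9 in MI (5.41 ± 2.01, adjusted p = 0.041) lost its call without any 1 of 7 sham plates (5.36 to 5.43) and kept it without day 14 sham replicate 2 or 7 (5.41 and 5.40), could not be tested without MI replicate 4, and was at least 15.3-fold higher than in sham. A single well of MI held 102 of the 115 S100a8 UMIs and 64 of the 78 S100a9 UMIs, and without it S100a8 was at 10.9 CPM and S100a9 at 11.8 CPM over MI, instead of 71.2 and 48.3 CPM. The bound for S100a9 was then 3.73-fold.

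In all, 5 S100 genes were higher and 1 lower in endothelial-like wells of IR day 1, beside 6.29% and 8.04% of 4703 genes. S100a4, S100a8 and S100a9 are among these 5, and among the 6 of MI below. Each held at most 1 UMI in sham, so they passed the filter on low counts through injured hearts alone. In IR day 3, 3 were higher and 0 lower, beside 6.29% and 4.32% of genes, and at Leiden resolution 2 it was 0, with S100a6 at 1.40, S100a11 at 0.63 and S100a4 with too few counts to be tested. In MI, 6 were higher and 1 lower, beside 17.1% and 15.2% of genes, and against day 1 sham alone S100a10 (0.49), S100a8 (4.23) and S100a9 (5.41) no longer passed. In IR day 14, 0 passed in edgeR, with 0 at an unadjusted p under 0.05 and 0 in DESeq2, beside 0% and 0% of genes. Between MI and IR day 3, S100a11 was higher in MI (1.20 ± 0.34) and S100a1 lower (-1.49 ± 0.44), beside 3.21% and 6.12% of genes. The first call was lost without IR day 3 replicate 3 (1.06) or 7 (1.16) and the second without IR day 3 replicate 4 (-1.27) or 7 (-1.53) or MI replicate 1 (-1.38).

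S100a4 in endothelial-like wells started from near nothing. It was 0 CPM on all day 1 sham plates, and a single day 14 sham plate had 11.8 CPM. It was 0, 503 and 161 CPM in IR day 3 (7.36 ± 1.00) and 35.9, 85.9, 51.0, 231 and 125 CPM in MI (5.83 ± 1.03), so every MI plate exceeded sham. With 1 UMI in sham, the pooled ratios were 369 (95% counting interval 65.4 to 14636) for IR day 3 and 125 (22.3 to 4978) for MI. Most of the UMIs came from a single plate in each group. IR day 3 replicate 4 held 178 and replicate 7 held 22. MI replicate 4 held 155 and replicate 2, the next, held 28. In IR day 1 it was 0 CPM on replicates 1, 3, 4, 5 and 6, overlapping sham. Replicates 7, 8 and 9 had 15.7, 54.5 and 101 CPM, from 3, 4 and 22 UMIs. Pooled over IR day 1 it was at least 8.13-fold higher against 3 UMIs over the sham group. The log2 change was 5.37 (adjusted p = 0.0277), a call lost without IR day 1 replicate 9 (4.05) or day 1 sham replicate 1, 2 or 3. The part of the macrophage markers given above, highest in IR day 3, in the S100a4 values was not tested.

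In fibroblast-like wells few S100 genes passed. On simulated data for IR day 1 against day 1 sham this fit recovered 82 of 200 planted changes, so changes could be missed. S100a11 was 1617, 1598, 1648, 1642 and 1786 CPM in MI, against 839, 889 and 585 CPM on 3 plates of day 1 sham and 764 CPM on 1 plate of day 14 sham (log2 change 1.27 ± 0.41, adjusted p = 0.0303). The groups did not overlap, but the call was lost without MI replicate 3 (1.26) or 5 (1.23), or day 1 sham replicate 1 (1.20) or 4 (1.15). It was the 1 gene of the set that passed, beside 11.6% of 6447 genes called higher and 6.11% called lower. S100a4 was 409, 473, 411, 659 and 216 CPM in MI and 89.9, 347 and 32.5 CPM in day 1 sham (1.24, adjusted p = 0.149), and passed without day 1 sham replicate 3 (2.14).

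S100a1 in fibroblast-like wells was 0, 97.3 and 97.6 CPM in day 1 sham and 11.6, 11.1, 7.26, 0 and 0 CPM in IR day 1 (-3.32 ± 0.92, adjusted p = 0.0119), with overlap at 0. The call was lost without day 1 sham replicate 3 (-2.57) and stands beside 7.85% of genes called lower and 11% called higher. Between MI, at 25.8, 28.7, 32.6, 50.7 and 32.5 CPM, and IR day 3, at 141, 159, 49.7 and 210 CPM, it was lower in MI by 2.34 ± 0.36 on the log2 scale (log2 change -2.34, adjusted p = 4.22e-05), beside 7.12% of genes called lower and 4.27% called higher. Cardiomyocyte markers in these wells summed to 5141 CPM in day 1 sham, 232 CPM in IR day 1, 12198 CPM in IR day 3 and 102 CPM in MI. The fibroblast markers themselves summed to 32765, 16423, 79050 and 33161 CPM in the same groups. The part of these markers in the S100a1 values was not tested. In IR day 3 against sham 0 genes of the set passed in edgeR and 0 in DESeq2, with 1 at an unadjusted p under 0.05 (S100a10), beside 0.884% and 0.372% of genes.

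The partners of these proteins were taken from 4 lists of genes. Of 8 annexins and other binding partners tested over all wells, 3 were higher and 0 lower in IR day 1, Anxa2 (1.85), Myh9 (1.24) and Cacybp (1.20), beside 19.8% of genes called higher and 17% lower, with a list median of 0.64 against 0.098 over all genes. In MI 5 were higher and 0 lower, with Anxa2 at 2.68, Anxa1 at 2.54 and Myh9 at 2.31, beside 33.1% and 23.4% of genes. In IR day 3 there were 3 higher (Anxa1 at 2.17, Anxa2 at 1.87 and Sugt1 at 0.74) and 1 lower (Anxa11 at -0.92), beside 18.7% and 11.4%. In cardiomyocyte-like wells of IR day 3, the partner of S100a10, Anxa2, rose by 2.46 ± 0.43 and the partner of S100a11, Anxa1, by 2.38 ± 0.74, and they were the 2 of 7 tested that passed, beside 4.15% called higher. On MI plates with at least 1 cardiomyocyte-like well, Anxa2 rose by 3.22 and Cacybp by 1.23, 2 of 4 tested, beside 38.3%. In endothelial-like wells of MI, Anxa1 (3.15), Myh9 (2.06) and Anxa2 (1.87) rose and Ahnak (-0.83) fell, beside 17.1% and 15.2%.

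Among 5 of 7 listed receptors and signalling genes that could be tested over all wells, 3 were higher and 2 lower in IR day 1, beside 19.8% and 17% of genes. Cd14, a co-receptor of Tlr4, rose by 2.95 ± 0.71 and Myd88, the adaptor below it, by 1.86, while Bsg (-2.63), a receptor of S100a9, and Cd36 (-2.35), a fatty acid transporter, fell. MI had 3 higher and 2 lower, with Cd36 at -3.78, Cd14 at 2.94, Bsg at -2.10 and Myd88 at 1.74, beside 33.1% and 23.4%. IR day 3 had 3 higher and 0 lower, Cd14 at 2.67, Tlr4 at 1.30 and Myd88 at 1.13, beside 18.7% and 11.4%. In cardiomyocyte-like wells of IR day 3, 1 of 4 tested passed, Cd14 at 3.74 ± 0.82, beside 240 of 5778 genes called higher and 83 called lower. In neutrophil-like wells Cd14 was the 1 gene of the list tested and had less RNA in MI than at day 1 of IR (-2.01 ± 0.37). This stands beside 54 of 495 genes called lower and 55 called higher.

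The 4 calcium handling and sarcomere partners of S100a1, namely Ryr2, Atp2a2, Pln, which restrains that pump, and the sarcomere spring Ttn, were all lower over all wells in IR day 1, with changes of -4.55 for Ttn, -4.42 for Ryr2, -4.35 for Atp2a2 and -4.31 for Pln. They were all lower in MI too, from -4.26 for Pln to -9.38 for Ttn. These counts stand beside 17% and 23.4% of genes called lower. Over all wells of IR day 3, 0 of 4 passed in edgeR, beside 1738 of 9280 genes called higher and 1061 called lower. In cardiomyocyte-like wells of IR day 3, 0 of 4 passed too, beside 240 and 83 of 5778 genes. In both comparisons 0 of the 4 had an unadjusted p under 0.05. On plates with at least 1 cardiomyocyte-like well, by contrast, all 4 were lower in IR day 1, from -1.34 for Pln to -2.99 for Ttn, beside 12.5% of genes called lower. In MI, Atp2a2 (-6.73 ± 0.74), Ttn (-5.55 ± 0.91) and Ryr2 (-4.98 ± 0.65) were lower against sham, beside 26.1%, and Pln (0.51) did not pass. The same 3 were lower in MI than in IR day 3 (-6.40, -4.65 and -4.33), beside 22.2%. S100a1 did not pass in these 3 comparisons of cardiomyocyte-like wells. Of 8 other S100 genes 2 could be tested over all wells, S100a13 and S100a16, and 0 passed in edgeR in any comparison over all wells, with S100a16 at an unadjusted p under 0.05 in IR day 3.

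The genes most like each S100 gene were found over 25 pools of a class in a group, by Pearson's r of log2(CPM + 10) among 10531 genes, given as a description; pools share plates and depth. For S100a8 they were S100a9 (r = 0.99), Fpr2 (0.97) and Il1r2 (0.96), the last of which is a marker used to name neutrophil-like clusters. For S100a1 they were Chchd10 (0.96), Eno3 (0.96) and Pgam2 (0.95), for S100a4 Ccdc109b (0.94), Sh3pxd2b (0.92) and Emp3 (0.91), and for S100a10 Eef1a1 (0.93), Tmsb10 (0.92) and Dynll1 (0.91). S100a6 was most like Anxa2 (0.90), Serp1 (0.90) and S100a11 (0.90), and S100a11 most like Zyx (0.95), Anxa2 (0.94) and Txn1 (0.93). Within the set S100a1 ran against every other gene (r from -0.41 with S100a8 to -0.84 with S100a6), S100a10 and S100a11 stood at 0.79, and S100a8 and S100a10 at 0.076.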

How the data were processed

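Per the labels and the methods of the study, the authors mapped reads to GRCm38/mm10 with BWA and deposited UMI counts per gene and well, which were used as raw counts; the BWA version and annotation are not given in the sources used here. Spike-in and mitochondrial genes were left out. UMIs have 6 bases, so a count can reach at most 4096, and the highest value of an S100 gene was 543. Wells with at least 1000 UMIs were clustered with scanpy 1.11.5 (2000 variable genes, 30 components, 15 neighbours, Leiden resolution 1), without S100 genes, and a cluster was named when at least 3 markers of a list were 2 times higher than elsewhere. Doublets were not called. Counts were summed per plate and class, for plates with at least 5 wells, and fitted for all groups together with edgeR 4.0.16 (filterByExpr, TMM, quasi-likelihood F test, Benjamini-Hochberg over all genes, threshold 0.05), scripts having been tested on simulated data. Shares were compared by exact two-sided permutation over plates in scipy 1.17.1. Alternatives were RLE scaling, DESeq2 1.42.0, other filters and clusterings, either sham group alone, a replicate block and leaving out each plate. The 7 genes and all lists were chosen with earlier results of these data known. Beyond these 7, genes were named only from the lists, at most 4 per list and comparison (those past the threshold with the largest change), from the 3 genes most like each S100 gene, and as leading genes of a cluster. Gene positions came from GENCODE vM21 and promoters from RefSeq. Intervals cover counting error only.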

Additional observations from a re-analysis of the deposited data

Results flagged for a closer look

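Plates that lay far from the others of their group were sought in 100 sets of 4 to 10 plates with at least 30 UMIs of the gene. Such a plate was held by 14 sets. The cutoff allows about 1 in 20 for a single set. The sets share plates and wells and are not independent, so 14 cannot be weighed against that rate. Over all kept wells S100a1 was 423 CPM on day 1 sham replicate 3 and 127 CPM on MI replicate 5, and S100a10 was 607 CPM on MI replicate 5, each the highest of its group. In cardiomyocyte-like wells S100a1 was 1443 CPM on day 14 sham replicate 5. In endothelial-like wells the alarmins stood out on IR day 1 replicate 9, with 1241 CPM of S100a8 and 1058 CPM of S100a9, and on MI replicate 4, with 165 and 110 CPM. In macrophage-like wells of IR day 3, S100a1 was 211 CPM on replicate 1 and S100a10 was 170 CPM on replicate 3, its lowest. In fibroblast-like wells S100a1 was 50.7 CPM on MI replicate 4, S100a11 was 1786 CPM on MI replicate 5, and IR day 1 replicate 5 had 300.2 CPM of S100a8 and 589 CPM of S100a9.

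The response to MI differed between cardiomyocyte-like and endothelial-like wells, by a test of the difference on the log2 scale, by 3.49 for S100a10, 2.04 for S100a11 and 2.27 for S100a1. With RLE scaling the S100a11 difference was 1.18 and did not pass. S100a1 fell by 2.49 in endothelial-like wells, where cardiomyocyte markers summed to 12148 and 26409 CPM in sham and 231 CPM in MI, and their part was not tested.

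Wells with fewer than 1000 UMIs, which enter no comparison, also held alarmin transcripts. Pooled over such wells, S100a8 was at 1595 CPM in IR day 1 and 126 CPM in MI, and S100a9 at 1493 and 131 CPM, against 40.7 and 20.4 CPM in day 1 sham and 2.25 and 0 CPM in day 14 sham. Whether these UMIs came from small cells or from free RNA was not tested.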

How the results depend on the processing

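No direction of a gene change that passed in the report was reversed under an alternative. Of 1045 fold changes recomputed with another setting, 953 kept their side of the threshold, 57 no longer passed and 35 passed newly. Of 1231 with a plate left out, 1144 kept their side, 76 no longer passed and 11 passed newly. Direction was compared only where the main fit or the alternative passed. Among 63 further gene changes that never passed, 26 changed sign in an alternative. Counts of S100 genes that passed stayed within 1.5 times in 250 of 274 cases. With day 1 sham alone the count fell from 4 to 1 over all wells of IR day 3 and from 7 to 4 in endothelial-like wells of MI, and rose from 1 to 2 in fibroblast-like wells of MI against sham. At Leiden resolution 2 it fell from 3 to 0 in endothelial-like wells of IR day 3. With plates of at least 1 well it fell from 2 to 1 in endothelial-like wells of MI against IR. In macrophage-like wells of IR day 1 the 2 genes became 1 with RLE scaling, at least 1 well per plate or at least 2000 UMIs per well, 4 with DESeq2 or no filter on low counts, and 0 at Leiden resolution 2. In macrophage-like wells of MI against IR, 5 became 3 at 2000 UMIs. In fibroblast-like wells the 1 gene of IR day 1 became 3 with RLE, 2 with DESeq2 and 4 with no filter; the 1 gene of MI against sham became 2 with DESeq2, no filter or 1 well per plate; and that of MI against IR became 2 with no filter, at least 10 wells, S100 genes in the clustering or Leiden resolution 2. The causes were not tested. With S100 genes in the clustering, the mean levels of S100a8 and S100a9 in cardiomyocyte-like wells were 36.0 and 35.4 CPM instead of 2.42 and 2.97 CPM. The IR day 3 share of S100a9 minus sham was -0.227 points unthinned (0.0388 thinned), and that of S100a8 was -0.0452 points without day 14 sham plates 3 and 4 (0.000289 with them), an alternative chosen after seeing the data, as were the use of plates with at least 1 well and the values without the highest endothelial-like well.

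With 1 plate left out, the counts ran from 0 to 3 in endothelial-like wells of MI against IR and in fibroblast-like wells of IR day 1, from 0 to 2 in macrophage-like wells of IR day 1 and fibroblast-like wells of MI against sham, and from 1 to 3 in neutrophil-like wells and in cardiomyocyte-like wells of IR day 1. The IR day 3 shares minus sham ran from -0.164 to 0.124 points for S100a8 and from -0.123 to 0.0986 points for S100a9.

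Replicate numbers recur between groups, but the labels do not say that they pair plates, and deviations of 63 pairs with the same number correlated by -0.107 to 0.335 (median -0.0023, against -0.0059 for 434 other pairs). With the number as a replicate block, counts over all wells were 7, 4, 0, 7 and 4, those in fibroblast-like wells of IR day 1 and of MI against sham were 0, and S100a6 in cardiomyocyte-like wells of IR day 3 stood at 1.56 with an adjusted p of 0.20.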
